A study of Mus musculus with 12 samples.

Results

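The comparison described here asks what a combined treatment with curcumin and verapamil (VERCUR) did to the transcripts of the cortex in wild-type (WT) mice, which carry no deletion, and it rests on 3 VERCUR-WT and 3 VEH-WT mice, 6 of the 12 mice sequenced in the series. VEH-WT mice are labelled as untreated, and in the study's methods they drank water with DMSO. The 6 other mice carried the heterozygous complete deletion (CD) that models Williams-Beuren syndrome. They were given vehicle (VEH-CD, 3 mice) or co-treatment (VERCUR-CD, 3 mice). Their values are given for reference, and they also enter the filter for expression and the shared estimate of spread behind each test. Members were taken by their labels, and transcripts were compared genome-wide.

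All mice are labelled as C57Bl6 and 16 weeks old at dissection. By the labels, curcumin was given at 60 and verapamil at 10 mg/kg/day, taken by drinking from 8 weeks of age for 1 month, which leaves the weeks up to dissection unaccounted for. The study's methods give a lower dose of verapamil and an earlier end, describe the curcumin as an extract, and place the CD mice in a cross with a Thy1-YFP reporter line that marks pyramidal neurons. Neither compound was given alone to any mouse sequenced here, so their separate effects cannot be told apart. The labels name the tissue as cortex and the methods as frontal cortex, and each library came from 1 mouse.

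Curcumin is a phenolic pigment of turmeric that is studied as an inducer of the transcription factor NRF2, which switches on antioxidant enzymes, and as an inhibitor of NF-kappa B, which switches on inflammatory genes. Verapamil blocks L-type voltage-gated calcium channels, through which calcium enters depolarized neurons and starts signalling to the nucleus. Among the transcripts that this calcium signal induces within minutes are the immediate early genes, transcription factors and regulators such as Fos, Egr1 and Arc that are widely used as a record of recent neuronal activity.

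Between 40947552 and 56480948 reads were counted on genes per WT mouse, as recovered from the steps of the normalized counts. Tests covered the 17111 genes whose normalized counts averaged 10 or more over the 12 mice. Correlations between mice of the same group lay between 0.986 and 0.994 on the log2 scale. Genes of the deleted region followed the genotype labels. Limk1, a kinase of the actin cytoskeleton inside the deletion, had 4112 to 4567 normalized counts in the 6 WT mice and 1716 to 1994 in the 6 CD mice. Slc17a7, the vesicular glutamate transporter of cortical excitatory neurons, had 92109 to 106911 normalized counts in the 6 WT mice. Of the 7 markers of these neurons 1, Slc17a6 (-0.29), was lower in VERCUR-WT at an unadjusted p under 0.05, beside 3.25% of all genes.

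Marker genes of other regions and cells differed widely between mice. The 12 markers of neurons of the striatum, which lies below the frontal cortex, were low in 2 of the 3 VERCUR-WT mice. Drd2, the dopamine receptor of indirect-pathway neurons, had 544, 561 and 1429 normalized counts in VEH-WT mice 1 to 3 and 69, 75 and 1671 in VERCUR-WT mice 1 to 3. Six3, a striatal transcription factor, had 87, 100 and 268 in VEH-WT mice and 2, 7 and 374 in VERCUR-WT mice, and Isl1 was listed at 0 in VERCUR-WT 1 and 2. The summed striatal markers ranged from 23306 to 46243 normalized counts in VEH-WT and from 12795 to 52730 in VERCUR-WT mice, so VERCUR-WT held both the lowest and the highest values of the 6. The first principal component of the 6 WT mice, with 33.5% of the variance, set VERCUR-WT 1 and 2 on one side (27.6 and 21.9) and VERCUR-WT 3 beside VEH-WT 3 on the other (-17.0 and -23.2).

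The same mice differed in markers of white matter and of the ventricle wall. All 10 oligodendrocyte markers were lower in VERCUR-WT, with a median log2 fold change of -0.49, but the groups overlapped for each of them and their sum ranged from 83285 to 214336 normalized counts in VERCUR-WT and from 151886 to 239205 in VEH-WT mice. Ependymal markers followed the striatal ones, with mean log2 ratios to VEH-WT of -1.48, -1.03 and 0.77 in the 3 VERCUR-WT mice. In bulk tissue, fewer cells of a type and less RNA per cell cannot be told apart. The counts of list members given below were recomputed with the striatal level of each mouse as a covariate and without each WT mouse, and a count of 2 or more that moved by over 1.5 times is given with its other values.

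**Figure D1:**
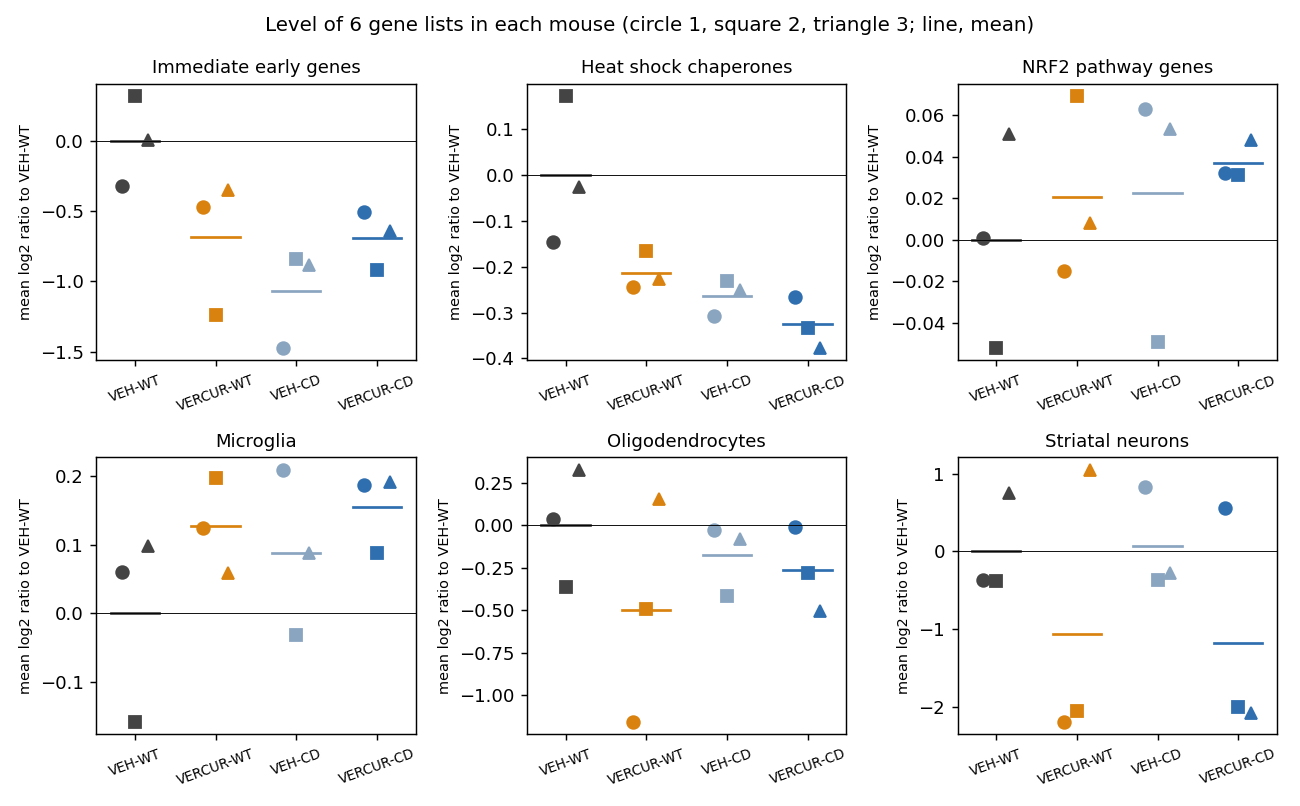
Mean log2 ratio to the VEH-WT mean (vertical axes, scales differ) of the genes of 6 lists, for each of the 12 mice. VERCUR-WT 1 and 2 and VERCUR-CD 2 and 3 lie near -2 for striatal neurons while VERCUR-WT 3 lies at 1.05, and the immediate early genes of VERCUR-WT 2 lie at -1.24 beside -0.47 and -0.35 in the other VERCUR-WT mice.

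No gene passed the test for co-treatment in WT mice. With limma and Benjamini-Hochberg adjustment, 0 of 17111 genes (0%) had both an adjusted p under 0.05 and a level changed by more than 25% in either direction, the call used throughout for differential expression. The smallest adjusted p was 0.206. limma with voom weights on the recovered reads also called 0. At an unadjusted p under 0.05 there were 893 genes, beside 856 expected by chance. Of the 893, 556 (3.25% of all genes tested) were lower and 337 (1.97%) higher in VERCUR-WT. The values of the groups did not overlap for 898 lower (5.25%) and 766 higher genes (4.48%), and the median log2 fold change of all genes was -0.001. The median standard error was 0.113 on the log2 scale and the median 95% interval reached 0.245 to either side. Genes named from here on did not pass the adjusted test unless this is said. Unadjusted p-values are used only to count genes and to rank them for naming.

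**Figure D2:**
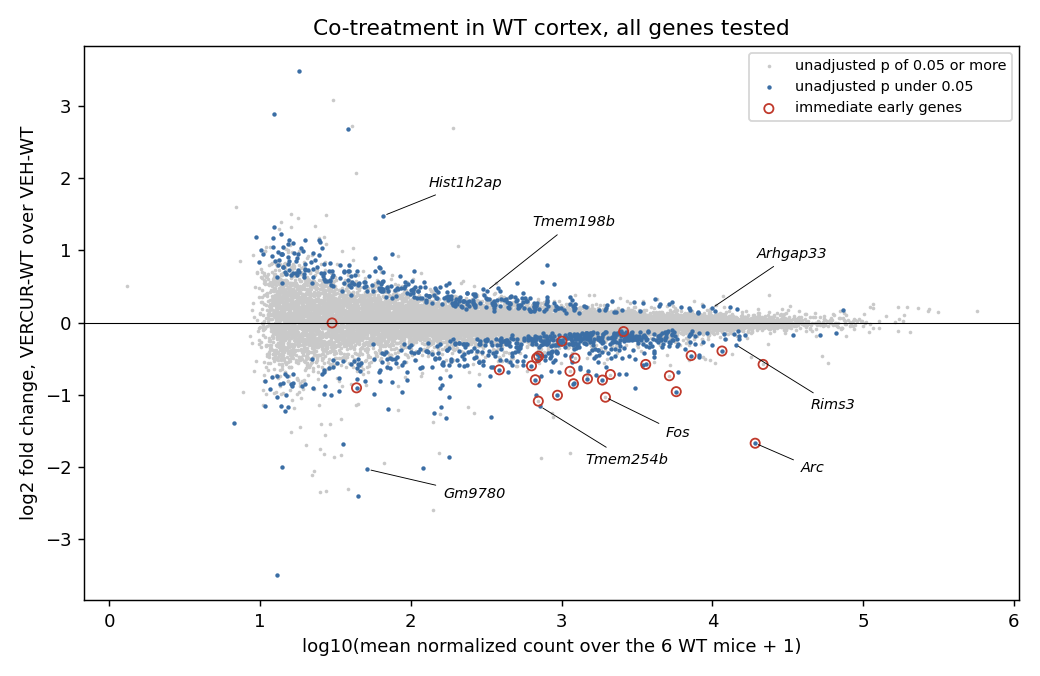
Log2 fold change of VERCUR-WT over VEH-WT (vertical) against log10 of the mean normalized count plus 1 over the 6 WT mice (horizontal) for 17111 genes, with genes at an unadjusted p under 0.05 in blue and the 25 immediate early genes ringed. The 25 rings lie at or below 0, down to -1.68 for Arc, while the bulk of genes is centred on 0.

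The 3 genes of smallest adjusted p in the 12-mouse fit (0.206 each, limma with Benjamini-Hochberg adjustment) were all lower in VERCUR-WT. Rims3, which encodes a small RIM protein of the presynaptic active zone where vesicles fuse, had 15329, 15771 and 16154 normalized counts in VEH-WT and 12424, 12465 and 13355 in VERCUR-WT mice. The groups did not overlap, at a log2 fold change of -0.31 with a standard error of 0.05. It was between -0.34 and -0.29 without each mouse in turn. In CD mice Rims3 lay between 13387 and 14063 normalized counts with vehicle and between 13456 and 13667 with co-treatment, so the VEH-WT mice were the highest of the 4 groups.

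The other genes of smallest adjusted p, Gm9780 and Tmem254b, lie close together on chromosome 14. Gm9780 had 93.0, 80.8 and 68.7 normalized counts in VEH-WT and 29.7, 10.2 and 21.6 in VERCUR-WT mice (log2 fold change -2.04, standard error 0.30). Tmem254b, a small membrane protein gene, had 1394, 771 and 831 in VEH-WT and 451, 483 and 366 in VERCUR-WT mice (-1.16, standard error 0.19). Without VERCUR-WT 1, Gm9780 was the single gene called, at an adjusted p of 0.0496 with limma and Benjamini-Hochberg adjustment and a log2 fold change of -2.35.

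Both genes belong to a block of 7 tested genes between Anxa11 and Slmap, delimited after their values were seen, which spans 284 kb of GRCm38 from the start of Tmem254a (chr14:25923300-25927672, minus strand) to the end of Tmem254b (chr14:26203369-26207041, minus strand). In 5 of the 7, beside 5.25% of all genes, the groups did not overlap and VERCUR-WT was lower: Tmem254a, Duxbl1, Gm9780, Plac9b and Tmem254b. Tmem254a had 367, 187 and 186 normalized counts in VEH-WT and 90.2, 85.2 and 104 in VERCUR-WT mice. The pseudogene Gm2260 went the other way, with 35, 2 and 27 in VEH-WT and 80, 44 and 68 in VERCUR-WT mice (2.08, standard error 1.14). The 10 genes that flank the block had log2 fold changes between -0.19 and 0.09, and none reached an unadjusted p under 0.05. The Tmem254 genes are near-identical copies, so how reads were shared among them is uncertain. Their sum, which does not depend on how reads were divided among them, was 1894, 1149 and 1252 in VEH-WT and 685, 593 and 587 in VERCUR-WT mice, a ratio of means of 0.434. The sum may still lack reads that match several copies, since the way such reads were counted is not given.

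**Figure D3:**
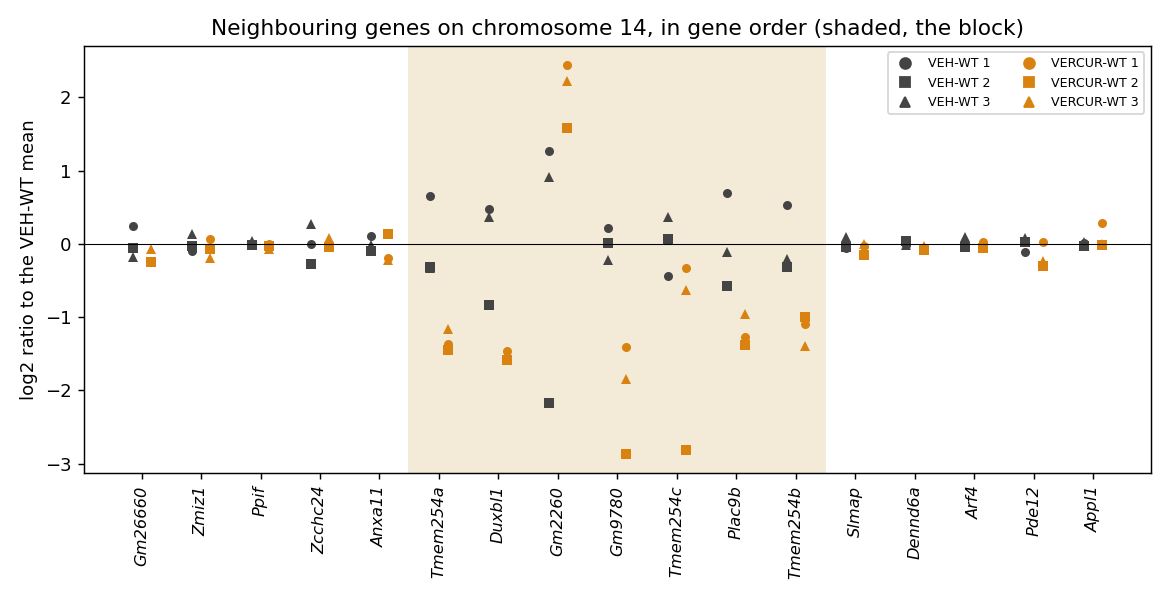
Log2 ratio to the VEH-WT mean (vertical) of 17 neighbouring genes on chromosome 14 in gene order (horizontal) for each of the 6 WT mice, with the block of 7 genes shaded. All 3 VERCUR-WT mice lie below the 3 VEH-WT mice for 5 genes of the block and above them for Gm2260, while the 10 flanking genes lie near 0.

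A further large difference cancelled within its locus. Nnt, the mitochondrial transhydrogenase, in which C57BL/6J mice are known to carry a deletion of several exons, has a pair of entries in the table that overlap on the same strand of chromosome 13. The first (ENSMUSG00000025453) had 192, 237 and 141 normalized counts in VEH-WT and 71.2, 26.9 and 47.4 in VERCUR-WT mice, a log2 fold change of -2.02. The second (ENSMUSG00000116207) had 616, 501 and 654 in VEH-WT and 684, 743 and 708 in VERCUR-WT mice, a log2 fold change of 0.28. The sum of both was 780 ± 37.3 in VEH-WT and 760 ± 8.35 in VERCUR-WT (SD, 3 mice each), a difference smaller than the spread between the VEH-WT mice.

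Other genes with groups that did not overlap and the largest log2 fold changes below 0 were Gm45140, Arc, Plac9b, Fos, Gm765 and Sik1. Kcnab3, an auxiliary subunit of voltage-gated potassium channels, was among the 5 lower genes of smallest p, with 2997, 3265 and 3709 normalized counts in VEH-WT and 1780, 1889 and 2477 in VERCUR-WT mice. All 3 VERCUR-WT mice lay below all 3 VEH-WT mice, at a log2 fold change of -0.71 with a standard error of 0.14. Cdr2l, an antigen in paraneoplastic cerebellar degeneration, had 1367, 1472 and 1280 in VEH-WT and 1049, 1003 and 1127 in VERCUR-WT mice (-0.37, standard error 0.08).

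Among genes that were higher in VERCUR-WT, Hist1h2ap, a replication-dependent histone H2A gene, had the largest log2 fold change by the rule for named genes, 1.48 with a standard error of 0.28. It had 44.8, 31.2 and 25.2 normalized counts in VEH-WT and 70.0, 94.5 and 123.3 in VERCUR-WT mice. Histone H2A genes are nearly identical in sequence, so its count is uncertain, and its levels in CD mice (65.1 to 145) overlapped those in VERCUR-WT. Tbx1, a T-box transcription factor known for its part in the 22q11 deletion syndrome, had 44, 36 and 36 in VEH-WT and 69, 103 and 54 in VERCUR-WT mice (0.90, standard error 0.26). Arhgap33, a GTPase-activating protein of dendritic spines, differed less but with tight groups, at 8988, 9366 and 9329 in VEH-WT and 11070, 10530 and 10179 in VERCUR-WT mice (0.20, standard error 0.05). Tmem198b, Gm43672 and E130311K13Rik were the others of the 5 smallest p among higher genes, at log2 fold changes of 0.44, 0.55 and 0.34. The remaining higher genes named by fold were the pseudogenes Gm3226 (0.95), Gm5526 (0.64) and Gm10443 (0.56), the long noncoding RNA 5930430L01Rik (0.75), the protein-coding genes Cntnap5c (0.58), Adamts13 (0.57) and Tnnc1 (0.56), and Mgst1, described below.

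The immediate early genes were lower in VERCUR-WT as a list. All 25 had a log2 fold change below 0, where 50.5% of all genes did, and their median was -0.68. Of the 25, 14 were lower at an unadjusted p under 0.05 and none was higher, beside 3.25% lower and 1.97% higher over all genes. In 12 of them the 3 VERCUR-WT values lay below all 3 VEH-WT values, beside 5.25% of all genes. None passed adjustment (smallest adjusted p 0.867, limma with Benjamini-Hochberg adjustment).

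Several orders of mice were seen within this list. In Arc, which encodes a capsid-forming protein that removes AMPA receptors from synapses, the VEH-WT mice had 20198, 34120 and 25465 normalized counts and the VERCUR-WT mice 14339, 1948 and 19267. All VERCUR-WT values were below all VEH-WT values, and VERCUR-WT 2 stood far below the rest. Fos, the AP-1 subunit, had 1965, 3081 and 2587 in VEH-WT and 1704, 596 and 1784 in VERCUR-WT mice (-1.04, standard error 0.51), and Nr4a1, an orphan nuclear receptor, 6073, 8395 and 7341 against 5405, 1650 and 5697 (-0.96, standard error 0.44). The log2 fold change of Arc was -1.68, and it was -0.65 without VERCUR-WT 2. Without that mouse Fos was at -0.52 and Nr4a1 at -0.38. VERCUR-WT 2 was also the lowest mouse for Egr2 and Csrnp1, whose groups overlapped.

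In other members all 3 VERCUR-WT mice were close together and below VEH-WT. Klf2, a Krüppel-like factor, had 637, 925 and 725 normalized counts in VEH-WT and 518, 421 and 560 in VERCUR-WT mice (-0.60, standard error 0.14). Klf4 had 389, 630 and 409 against 325, 300 and 261 (-0.66, standard error 0.17). Ier5 had 7816, 10275 and 7132 against 5675, 6220 and 6249 (-0.46, standard error 0.12). The zinc-finger factor Egr3 (-0.40, standard error 0.13) and the AP-1 subunits Fosb (-0.85, standard error 0.27) and Fosl2 (-0.80, standard error 0.24) were of this kind too, and in Fosb the VERCUR-WT mice had 852, 776 and 803 while the VEH-WT mice ranged from 881 to 2414. Sik1, a kinase that holds CREB coactivators in the cytoplasm, was lower in every VERCUR-WT mouse as well, with 937, 1622 and 1180 against 693, 394 and 803 (-1.01, standard error 0.27).

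In the remaining members named here VERCUR-WT 2 alone was low. Dusp1, the phosphatase that ends MAPK signalling, had 2202, 2524 and 2416 normalized counts in VEH-WT and 2632, 473 and 2398 in VERCUR-WT mice. Junb had 5131, 6990 and 6147 against 5788, 1456 and 5619, and Npas4, a neuron-specific factor induced by calcium, 946, 1502 and 1339 against 1424, 238 and 1365. Ier2 and Btg2 had the same shape. Without VERCUR-WT 2 the log2 fold changes of Dusp1 (0.08), Npas4 (0.17), Ier2 (0.05) and Btg2 (0.42) were above 0 and that of Junb was -0.08.

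VERCUR-WT 2 was the lowest of the 6 mice for 17 of the 25 genes and VEH-WT 2 the highest for 21. The mean log2 ratio of the list to VEH-WT was -0.32, 0.32 and 0.005 in VEH-WT mice 1 to 3. In VERCUR-WT mice 1 to 3 it was -0.47, -1.24 and -0.35, so VEH-WT 1 lay close to VERCUR-WT 3. The count of lower genes at an unadjusted p under 0.05 was 9 without VERCUR-WT 2, 7 without VEH-WT 2 and 9 without VEH-WT 3, and 15 or 16 without any of the other 3 WT mice. It was 9 with the striatal level as a covariate. Between 21 and 25 of the 25 genes were below 0 in the fits without 1 WT mouse. The median of the list stayed between -0.83 and -0.48 over these fits without 1 mouse. When 1 outlying value was dropped from each variable group, the log2 fold changes of Nr4a2 (0.13), Ier2 (0.05), Btg2 (0.42), Dusp1 (0.08) and Atf3 (0.56) were above 0.

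**Figure D4:**
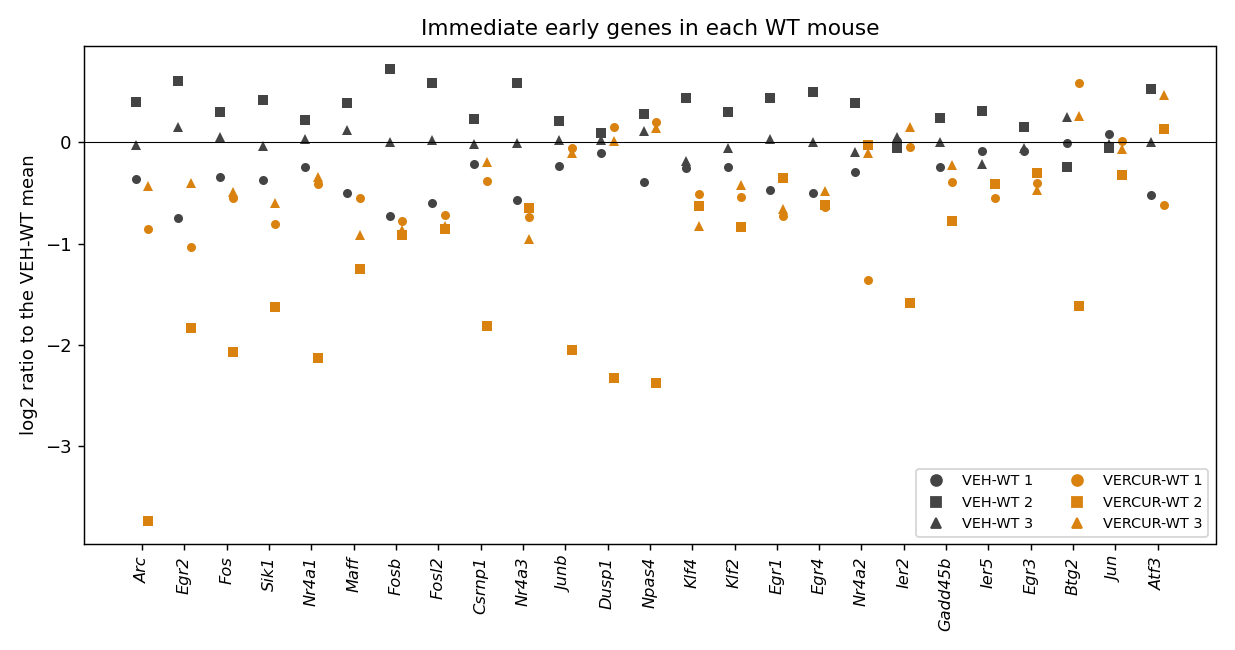
Log2 ratio to the VEH-WT mean (vertical) of the 25 immediate early genes, ordered by fold change (horizontal), with 1 point per WT mouse. VERCUR-WT 2 lies below -1.5 for Arc, Fos, Nr4a1, Junb, Dusp1 and Npas4, while the 3 VERCUR-WT mice lie together below 0 for Fosb, Fosl2, Klf4 and Ier5.

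Promoters of these genes are known to hold cyclic AMP response elements, sites of the factor CREB, through which calcium signals act. In the RefSeq promoter table of GRCm38.p6, 20 of the 25 genes were found, and the element's core TGACG, searched on both strands in the 250 bases before the start, was in 16 of them (80%), beside 19.8% of all 27025 genes in the table and 17.8% of all 32851 promoters. The full palindrome TGACGTCA, which contains the core, was in 3 of the 20 (15%) and 1.77% of all genes. The CArG box, the site of serum response factor, was in 1 (5%) and 1.62% of all genes in this window. These are matches of letters, not measured sites. The promoters of 4 members are shown because they span the patterns above, with every match to TGACG or its reverse complement in capitals. Fos and Nr4a1 were lowest in VERCUR-WT 2 but lower in all 3 mice, Nr4a3 (log2 fold change -0.78) was lower in all 3 to a like extent, and Dusp1 was low in VERCUR-WT 2 only. The positions, 5′ to 3′ on each gene's strand, are chr12:85473640-85473889 (plus) for Fos, chr15:101266596-101266845 (plus) for Nr4a1, chr4:48045055-48045304 (plus) for Nr4a3 and chr17:26508473-26508722 (minus) for Dusp1.
Fos: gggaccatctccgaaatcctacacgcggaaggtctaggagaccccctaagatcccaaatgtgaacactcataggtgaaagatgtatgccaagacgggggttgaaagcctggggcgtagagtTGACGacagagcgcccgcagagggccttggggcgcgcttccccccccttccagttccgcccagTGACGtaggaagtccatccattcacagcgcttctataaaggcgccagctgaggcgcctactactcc
Nr4a1: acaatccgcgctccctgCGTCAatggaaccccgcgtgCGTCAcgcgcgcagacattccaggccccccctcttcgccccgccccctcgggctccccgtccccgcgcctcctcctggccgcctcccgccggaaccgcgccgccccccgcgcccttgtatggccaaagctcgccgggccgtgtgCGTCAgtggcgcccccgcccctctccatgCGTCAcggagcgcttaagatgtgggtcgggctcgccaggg
Nr4a3: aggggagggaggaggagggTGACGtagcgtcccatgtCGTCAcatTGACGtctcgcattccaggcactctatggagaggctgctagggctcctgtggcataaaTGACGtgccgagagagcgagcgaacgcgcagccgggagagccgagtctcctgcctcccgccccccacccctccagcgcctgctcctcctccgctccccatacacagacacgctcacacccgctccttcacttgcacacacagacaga
Dusp1: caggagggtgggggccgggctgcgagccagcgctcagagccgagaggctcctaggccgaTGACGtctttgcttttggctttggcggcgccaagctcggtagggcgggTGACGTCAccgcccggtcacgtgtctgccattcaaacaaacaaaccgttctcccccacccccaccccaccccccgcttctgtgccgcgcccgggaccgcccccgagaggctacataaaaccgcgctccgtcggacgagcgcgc

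Fos held 2 matches and Nr4a1 and Nr4a3 4 each, while Dusp1 held 3, of which a pair overlap in its full palindrome. Matches were thus present in genes of each pattern.

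Genes that act later in activity-dependent programmes were lower by less. Of 18 effector genes, 16 had a log2 fold change below 0, with a median of -0.14, and 2 were lower at an unadjusted p under 0.05, beside 3.25% of all genes. None was lower at that p without VEH-WT 2 or without VERCUR-WT 1, 3 were without VEH-WT 1 or VERCUR-WT 3, and 5 were with the striatal covariate. The 2 genes were Gpr3, a constitutively active receptor (-0.46), and Nptx2, a pentraxin that clusters AMPA receptors (-0.30). Nptx2 had 3802, 4241 and 3471 normalized counts in VEH-WT and 2848, 3420 and 3101 in VERCUR-WT mice, without overlap. Bdnf, the neurotrophin whose protein was measured in the study, had 1552, 2107 and 1446 in VEH-WT and 1557, 1551 and 1170 in VERCUR-WT mice, which overlapped (-0.25, standard error 0.17).

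Feedback inhibitors of MAPK signalling were lower in VERCUR-WT in most cases. Of 14, 12 were below 0 with a median of -0.19, and Dusp5, Spry4 and Dusp7 were lower at an unadjusted p under 0.05, beside 3.25% of all genes. The count was 1 without VEH-WT 2 or without VERCUR-WT 2, and 3 or 4 without any of the other WT mice. Dusp5, a nuclear phosphatase of ERK, had 725, 1193 and 760 normalized counts in VEH-WT and 485, 265 and 625 in VERCUR-WT mice (-1.01, standard error 0.30). The 34 MAPK and PI3K-AKT genes that the study tabulated had a median of -0.27. Of these, 11 were lower and 2 higher at that p, beside 3.25% lower and 1.97% higher over all genes. These genes were chosen by the study on these mice and share members with the immediate early genes, so they are not independent evidence of a direction. Their count of lower genes was 4 without VEH-WT 2, 7 without VEH-WT 1 or VERCUR-WT 2, and 8 to 10 without any of the others. Their count of higher genes was 1 without VEH-WT 3 or VERCUR-WT 1, 3 without VEH-WT 1 and 4 without VERCUR-WT 3.

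Genes induced by glucocorticoids, the hormones of the stress response, also had low values in VERCUR-WT. Of 20 tested, 15 were below 0 with a median of -0.22, and 6 were lower at an unadjusted p under 0.05, beside 3.25% of all genes. The median was -0.36 without VEH-WT 1, -0.13 without VEH-WT 2 or VEH-WT 3 and -0.12 without VERCUR-WT 2, and the count was 4 without VEH-WT 2 and 5 to 8 without any of the others. Sgk1, a kinase regulated by steroids and salt, had 2464, 4605 and 5065 normalized counts in VEH-WT and 1702, 1845 and 2794 in VERCUR-WT mice (-0.90, standard error 0.24). The groups overlapped, since VEH-WT 1 lay below VERCUR-WT 3. Tsc22d3, which encodes the leucine zipper GILZ, had 3221, 4665 and 4533 against 2356, 2457 and 3446 (-0.59, standard error 0.16). The others were Per1 (-0.69), Nfkbia (-0.40), Ddit4 (-0.37) and Errfi1 (-0.34), whereas Fkbp5, a chaperone of the receptor and one of its most used targets, had 1179, 1605 and 1397 against 1219, 1213 and 1469 (-0.09, standard error 0.12). Sgk1 is also abundant in oligodendrocytes, whose markers were lower in VERCUR-WT 1 and 2, and the part of those cells was not tested.

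Of 20 circadian clock genes, 17 were below 0 with a median of -0.14, and 4 were lower at an unadjusted p under 0.05, beside 3.25% of all genes. Without VEH-WT 2 the count was 2 and the median -0.05. Among the 4 genes were Per1 (-0.69), Nfil3 (-0.46) and Bhlhe40 (-0.46). Per1, a period gene that both light and activity induce, had 6254, 10644 and 5218 normalized counts in VEH-WT and 4514, 3607 and 5106 in VERCUR-WT mice. Nfil3, a repressor in the D-box loop, had 567, 598 and 473 against 383, 380 and 423 (standard error 0.14).

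Of the lists chosen for curcumin, the NRF2 pathway showed values close to those of all genes. Its 26 genes had a median of 0.015, with 14 above and 12 below 0. At an unadjusted p under 0.05, 1 was higher and 1 lower, beside 1.97% and 3.25% of all genes. A lower gene was found in only 2 of the 6 fits without 1 WT mouse. Nfe2l2, which encodes NRF2 itself, had 614, 662 and 783 normalized counts in VEH-WT and 626, 618 and 590 in VERCUR-WT mice (-0.16, standard error 0.10). Nqo1, the quinone reductase most used as its readout, had 108, 118 and 134 against 123, 119 and 147 (0.11, standard error 0.13), and Gclc, Gclm, Srxn1 and Txnrd1 lay between -0.09 and -0.01. The member that was higher was Mgst1, a membrane glutathione transferase, with 147, 112 and 178 against 191, 236 and 206 (0.55, standard error 0.15). Hmox1, heme oxygenase, was lower, with 210, 290 and 234 against 196, 206 and 191 (-0.29, standard error 0.12).

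Of 16 heat shock chaperones, 15 were below 0 with a median of -0.13, and 7 were lower at an unadjusted p under 0.05, beside 3.25% of all genes. Hspa1a and Hspa1b, near-identical genes of inducible HSP70 whose reads may be shared, were among them. Hspa1a had 959, 1991 and 1299 normalized counts in VEH-WT and 969, 956 and 844 in VERCUR-WT mice (-0.56, standard error 0.19). The others were Cryab (-0.48), Hspb1 (-0.42), Bag3 (-0.30), Dnajb1 (-0.29) and Hsph1 (-0.18), while the constitutive chaperone genes Hsp90aa1 and Hsp90ab1 differed by -0.04 and -0.06. VEH-WT 2 had the highest values, and without it the count of lower genes was 2. It was also 2 without VERCUR-WT 1 or VERCUR-WT 3, 3 without VEH-WT 3 and 4 without VERCUR-WT 2.

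Inflammatory lists differed in sign. Of 16 NF-kappa B genes, 13 were below 0 with a median of -0.07, and Rel (-0.46), Nfkbiz (-0.41), Nfkbia (-0.40) and Relb (-0.30) were lower at an unadjusted p under 0.05, beside 3.25% of all genes. The count was 2 without VEH-WT 2, VERCUR-WT 1 or VERCUR-WT 2 and 3 without any of the others. Rel, a subunit of the factor, had 257, 233 and 263 normalized counts in VEH-WT and 203, 144 and 206 in VERCUR-WT mice. Tnf and Ccl2, classical targets, were not in the table. Of 13 inflammasome genes, which ranged from -0.26 to 0.61, 9 were above 0 with a median of 0.18, and Nlrx1 (0.36) and Gsdmd (0.45) were higher at that p, beside 1.97% of all genes. The count was 3 without VERCUR-WT 3 and 1 without any other WT mouse. Nlrx1, a mitochondrial NLR protein that dampens such signalling, had 426, 359 and 403 in VEH-WT and 579, 479 and 472 in VERCUR-WT mice. Il1b, whose protein the study measured, and Nlrp1a belong to this list but had no deposited values.

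The sensor Nlrp3 was read at few counts, 35, 28 and 35 in VEH-WT and 40, 52 and 23 in VERCUR-WT mice (0.18, standard error 0.26), which overlapped. It was -0.07 without VERCUR-WT 2 and 0.49 without VERCUR-WT 3. The adaptor Pycard had 111, 97 and 91 against 119, 114 and 104 (0.17, standard error 0.15). Aim2, a sensor of DNA, had 63, 54 and 84 against 56, 51 and 73 (-0.15, standard error 0.20). The 20 interferon-responsive genes had a median of 0.06, and none of them reached an unadjusted p under 0.05. That median was -0.07 without VEH-WT 2 and -0.04 without VERCUR-WT 2. The 13 microglial markers were all above 0, with a median of 0.12, but with values that overlapped for 12. Their mean log2 ratio to VEH-WT was 0.06, -0.16 and 0.10 in VEH-WT mice 1 to 3 and 0.12, 0.20 and 0.06 in VERCUR-WT mice 1 to 3. VEH-WT 2 was thus the lowest, and VERCUR-WT 3 lay no higher than VEH-WT 1 and 3. Fcrls was the single one higher at an unadjusted p under 0.05, beside 1.97% of all genes (0.23, and 0.13 to 0.30 without 1 WT mouse). Aif1, which encodes IBA1, had 223, 192 and 206 against 202, 271 and 257 (0.22, standard error 0.15).

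All 20 genes of cholesterol synthesis had log2 fold changes below 0, between -0.23 and -0.01, with a median of -0.08, where 50.5% of all genes were below 0. In 5 of them the groups did not overlap, beside 5.25% lower without overlap over all genes. At an unadjusted p under 0.05, 2 were lower, beside 3.25% of all genes. That count was 1 without VEH-WT 1 or VERCUR-WT 1. Cyp51, a demethylase of the sterol pathway, had 3662, 3554 and 3518 normalized counts in VEH-WT and 3097, 2832 and 3226 in VERCUR-WT mice (-0.23, standard error 0.06). Idi1, an isomerase upstream of it, had 3085, 2654 and 2996 against 2385, 2542 and 2624 (-0.21, standard error 0.09). With the striatal level as a covariate 17 of the 20 were below 0 and 1 passed that p. In the fits without 1 WT mouse 17 to 20 were below 0, with 17 without VEH-WT 1 or VERCUR-WT 2. Of 16 unfolded protein response genes 1, Herpud1 (-0.24, standard error 0.09), was lower at that p, beside 3.25% of all genes. The count was 0 to 4 without 1 WT mouse (4 without VERCUR-WT 2, 3 without VEH-WT 1, and 0 without VEH-WT 2, VERCUR-WT 1 or VERCUR-WT 3).

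The direct targets of verapamil were read at nearly the same level in both groups. Cacna1c, the pore of the main L-type channel of neurons, had 2943, 3048 and 3127 normalized counts in VEH-WT and 3672, 2853 and 3052 in VERCUR-WT mice (log2 fold change 0.06, standard error 0.12). Cacna1d, the pore of its low-threshold relative, had 1540, 1870 and 1688 against 1734, 1535 and 1657 (-0.05, standard error 0.11). Cacna1s, the muscle form, was read at 25 to 33 counts. The 11 subunits tested had a median of -0.04 and a range of -0.22 to 0.09. Cacna2d3, an auxiliary subunit, was the single one lower at an unadjusted p under 0.05, beside 3.25% of all genes, and none was higher. It had 4529, 4709 and 4899 against 3737, 3856 and 4693 (-0.21). With the striatal covariate it was at -0.11 and none of the 11 passed that p, and 0 to 2 did without 1 WT mouse.

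Lists of other calcium handling and drug disposition genes had medians close to 0. The 13 other voltage-gated channel genes had a median of -0.03 with none at an unadjusted p under 0.05, and Cacng6 had 46, 29 and 34 normalized counts in VEH-WT and 42, 42 and 53 in VERCUR-WT mice. The 21 genes of calcium stores and pumps had a median of -0.01, again with none. Of 21 genes of drug transport and metabolism, Cyp4f15, a cytochrome P450, was the single one higher at that p, beside 1.97% of all genes. Its log2 fold change was 0.34 (standard error 0.12, and 0.22 to 0.43 without 1 WT mouse). Abcb1b, a P-glycoprotein gene whose product verapamil inhibits, had 120, 107 and 113 against 96, 81 and 109 (-0.26, standard error 0.13). The 8 neurotrophin genes tested ranged from -2.11 to 0.82, with a median of -0.08. Their mean log2 ratio to VEH-WT was -0.17, 0.03 and 0.13 in VEH-WT mice 1 to 3. In VERCUR-WT mice 1 to 3 it was -0.43, -0.45 and 0.15, and 1 of the 8 was listed at 0 in VERCUR-WT 1. At that p 1 was higher and 1 lower, beside 1.97% and 3.25% of all genes. The higher one was Ntf3 (0.82, standard error 0.30), with 17, 30 and 14 normalized counts in VEH-WT and 49, 33 and 26 in VERCUR-WT mice, which overlapped. No neurotrophin gene was higher or lower at that p without VEH-WT 1, VEH-WT 3 or VERCUR-WT 1. The 19 genes of the deleted region, present in 2 copies in these mice, had a median of 0.01 and none at that p, with Gtf2i at 11905, 12750 and 12036 against 12031, 11903 and 11579 and Eln, elastin, the highest of them at 0.33 (standard error 0.25).

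**Figure D5:**
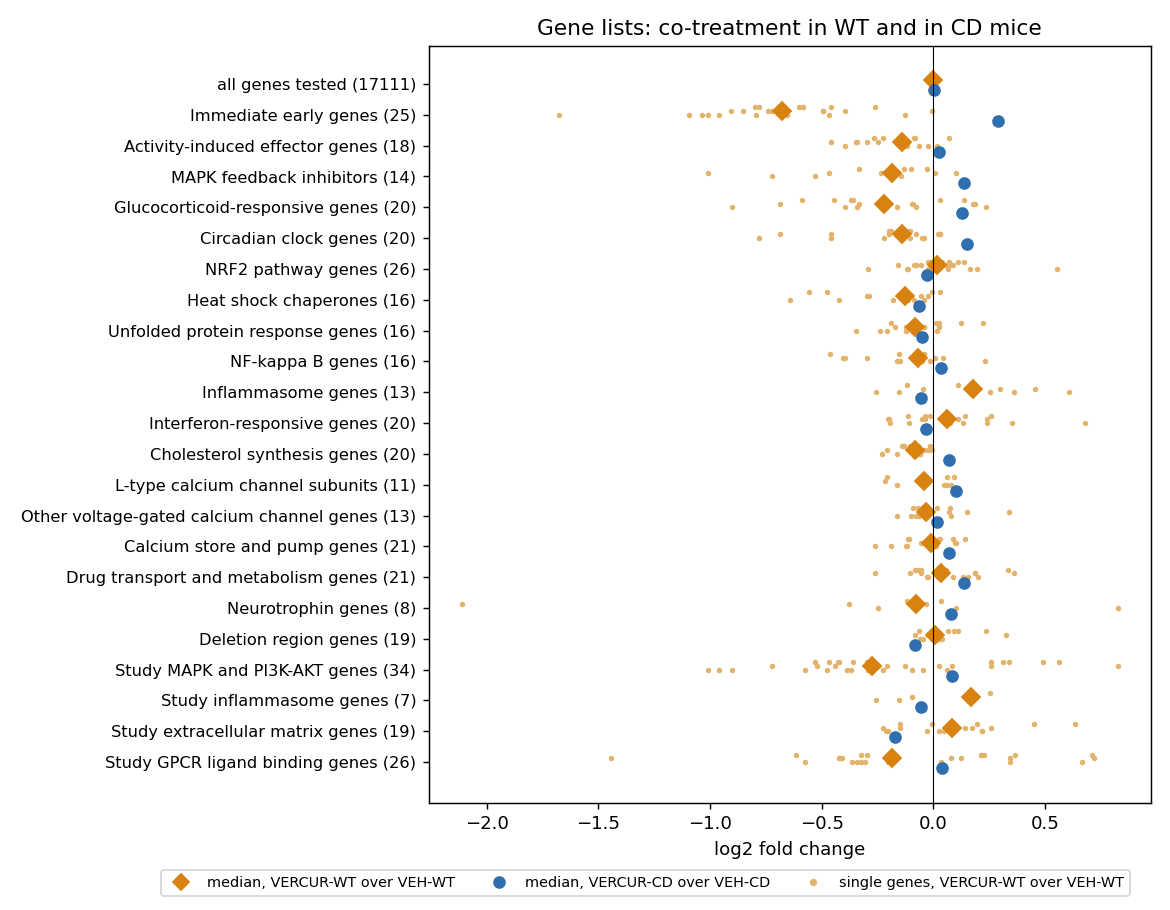
Log2 fold changes (horizontal) of the genes of 22 lists and of all genes tested, with small points for single genes and diamonds for medians in WT mice and circles for medians in CD mice, and the number of genes in brackets. The median of the immediate early genes is -0.68 in WT and 0.29 in CD mice, while NRF2, L-type channel and deletion region medians lie within 0.10 of 0 in both.

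Co-treatment in CD mice, which shares no mouse with the WT comparison, gave other values for the same lists. Of the 25 immediate early genes, whose median there was 0.29, 24 were above 0 and 2 were higher at an unadjusted p under 0.05, beside 2.09% of all genes. The mean log2 ratio of the list to VEH-WT was -1.47, -0.84 and -0.89 in VEH-CD and -0.51, -0.92 and -0.64 in VERCUR-CD mice, next to -0.47, -1.24 and -0.35 in VERCUR-WT. VEH-WT had the highest mean of the 4 groups for all 25 genes and VEH-CD the lowest for 23, so the means of both co-treated groups lay between those of the vehicle groups for 23 of them. Single mice did not follow this order, since VERCUR-WT 2 (-1.24) lay below VEH-CD 2 and 3. Across all 17111 genes the log2 fold changes of the WT and CD comparisons, which come from 1 fit, had a Pearson correlation of -0.02 and a Spearman correlation of -0.13.

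The difference between the WT and the CD effect was tested as an interaction. With limma and Benjamini-Hochberg adjustment 0 genes passed, the smallest adjusted p was 0.532, and 1035 genes had an unadjusted p under 0.05, of which 637 (3.72% of all genes) had a WT effect below the CD effect. Of the immediate early genes 16 were among the latter. Zfp189, a zinc-finger transcription factor, had the smallest p (3.1e-05), with 343, 513 and 419 normalized counts in VEH-WT, 310, 215 and 308 in VERCUR-WT, 201, 237 and 204 in VEH-CD and 366, 377 and 396 in VERCUR-CD mice. It was thus lower with co-treatment in WT (-0.61) and higher in CD mice (0.83). Utp14b (-0.54 and 0.52), Tent5a (-0.53 and 0.33), Ppp1r3c (-0.27 and 0.23), Vasn (-0.52 and 0.29) and Sntb2 (-0.41 and 0.46) had the same opposite signs. Rprm, which encodes the p53 target Reprimo, was the exception among the 10 of smallest p, with a WT effect of 0.03 and a CD effect of -0.35.

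Leaving out VERCUR-WT 3, the mouse with the highest striatal level, 3 genes were called, all lower in VERCUR-WT. They were Igfbpl1, Plekhf1 and Gm21984, named after their values were seen, at log2 fold changes of -3.97, -1.58 and -1.16 with adjusted p of 0.0403, 0.0403 and 0.0499 (limma with Benjamini-Hochberg adjustment). Igfbpl1 had 52, 39 and 77 normalized counts in VEH-WT and 1, 5 and 88 in VERCUR-WT mice, with VERCUR-WT 3 the highest and VERCUR-WT 1 and 2 the lowest, as for Drd2. Plekhf1 had 154, 229 and 268 against 74, 67 and 163. Without VERCUR-WT 3 the striatal markers themselves were lower as well, with Drd2 at a log2 fold change of -3.38. Several genes named above overlap another entry, among them Csrnp1 (Cx3cr1), Utp14b (Acsl3), Vasn (Dnaja3) and Gm45140 (Isy1 and Rab43) on the same strand and Tmem198b, Tnnc1, Junb, Dusp1 and Cryab on the opposite strand, and whether counting used strand is not given in the sources used here, so reads of such pairs may be shared.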

How the data were processed

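The authors aligned paired-end reads of cortical mRNA libraries to GRCm38 with STAR 2.5.3a, as the submitters' processing notes and the study's methods state, and deposited for each gene and mouse a normalized count, which is a read count divided by 1 factor per sample. The counting program, its strand setting and the normalization are not given in the sources used here. The deposited values were not raw counts. All values (100%) were whole multiples of 1 step per sample, within rounding of the printed decimals, which gave the reads counted. They are written with decimal commas, and tests were run on the normalized values. Of 17202 genes, 17111 with a mean of at least 10 were fitted with limma 3.58.1 in R 4.3.3 on log2(value + 1), a pseudocount of 1 that understates the change of low genes, with 4 group means over all 12 mice and an intensity trend. Tests were two-sided with Benjamini-Hochberg adjustment over all genes, and were checked on simulated data. No permutation test was used, because the smallest two-sided p that 3 against 3 mice allow in an exact test is 0.1. Labels do not say how the mice of a group were housed, and p-values measure the spread between them.

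Members and lists were chosen with earlier results of these data known. Genes named were those of largest fold among genes without overlap between groups and a mean of at least 50 (10 each way), the 5 of smallest p each way, the extremes and low-p members of each list, all members of the L-type channel, NRF2, inflammasome and deletion lists, genes the study measured, and the 10 of smallest interaction p. The Hsp90 genes, the other chromosome 14 genes, Tmem254c, the second Nnt entry, Fkbp5, the other immediate early genes and marker levels were added after their values were seen. Some genes that this rule names are not reported here. Positions are from GENCODE M21. The authors' 2 other tables list selected genes in VEH-WT, VEH-CD and VERCUR-CD mice only and were not used.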

Additional observations from a re-analysis of the deposited data

How the results depend on the processing

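edgeR and DESeq2 were not run, since the deposited values are normalized; limma with voom weights on the recovered reads was run in their place, and this, the gene-by-gene weights, the striatal covariate and the fits without mice of high striatal level were chosen after seeing the data. The count of 0 differentially expressed genes held with other pseudocounts, filters, scalings, variance settings and voom, none of which moved the median log2 fold change of all genes by over 0.1. It became 649 for co-treatment in WT and 492 for the interaction when single values were removed from groups with a CV of 20% or more, a step that by its construction removes the values farthest from the group median. It became 406 when the same thresholds were put on the unadjusted p. The interaction gave 18 genes under weights for sample quality, an estimate that stopped short of convergence, and 0 under weights fitted gene by gene. Without each WT mouse in turn the count ranged from 0 to 3 (1 without VERCUR-WT 1 and 3 without VERCUR-WT 3), and the interaction count was 0.

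With the replicate number as a block the counts were 0 and 0. Same-numbered WT mice had deviation correlations of 0.061, 0.18 and 0.27, so the numbers were not taken to pair the mice.

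Signs turned for Nr4a2 (0.13), Ier2 (0.052), Btg2 (0.419), Dusp1 (0.08) and Atf3 (0.561) when single values were removed. Without each mouse in turn, Npas4 ranged from -1.118 to 0.17, Ier2 from -0.814 to 0.052, Btg2 from -0.681 to 0.419 and Dusp1 from -1.157 to 0.08, each above 0 only without VERCUR-WT 2, and Atf3 from -0.27 to 0.30. Small medians also crossed 0. That of the study's inflammasome genes was -0.097 for means of at least 50 and ranged from -0.044 to 0.151 without single mice, and that of its GPCR genes was 0.341 for genes with a CV under 20% and ranged from -0.224 to 0.005. L-type channel subunits ranged from -0.053 to 0.046, other calcium channels from -0.057 to 0.012 (0.004 without the mice of highest striatal level) and hippocampal markers from -0.032 to 0.056. Interferon genes ranged from -0.071 to 0.087, NRF2 genes from -0.022 to 0.044, calcium store genes from -0.038 to 0.018, drug transport genes from -0.015 to 0.105, deletion region genes from -0.008 to 0.041 and the study's extracellular matrix genes from -0.001 to 0.184. The cause was not tested for any of these.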

Other observations

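The medians of the other marker lists in VERCUR-WT against VEH-WT ranged from -0.09 to 0.25 on the log2 scale. Excitatory neurons (0.02), upper layer neurons (-0.01), deep layer neurons (-0.08), interneurons (-0.09), oligodendrocyte precursors (-0.09), hippocampal neurons (-0.01) and thalamic neurons (-0.07) lay within 0.10 of 0 on the log2 scale. Single markers differed more. The 9 deep layer markers ranged from -0.69 to 0.29, with members both higher and lower at an unadjusted p under 0.05 in limma. Excitatory neurons, interneurons and oligodendrocyte precursors each had 1 lower member at that p, and hippocampal neurons 1 higher. Over all genes 3.25% were lower and 1.97% higher at that p. Astrocytes had a median of 0.10, meningeal fibroblasts 0.13, mural cells 0.08, endothelial cells 0.06, border macrophages 0.20 and red blood cells 0.20. Activated microglia had a median of 0.16 over the 8 of 13 markers that were tested. Lymphocyte markers had a median of 0.25 over the 3 of 8 that were tested, but ranged from -1.255 to 0.405, with 2 above and 1 below 0. Trbc2 was higher at an unadjusted p under 0.05 in limma, beside 1.97% of all genes. The mean log2 ratio of these markers to VEH-WT was -0.66, -0.46 and 0.52 in VERCUR-WT mice 1 to 3. Choroid plexus markers had a median of -0.04 over the 6 of 10 that were in the table.

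Of the gene groups that the study tabulated on these mice, which are not independent evidence of a direction, extracellular matrix was represented by 19 genes (median 0.08), 1 of which was higher and 0 lower at an unadjusted p under 0.05 in limma. The 26 GPCR ligand binding genes had a median of -0.19 (4 higher and 3 lower), and the 7 inflammasome genes a median of 0.17 (0 in either direction). Over all genes 1.97% were higher and 3.25% lower at that p. The count of lower GPCR genes was 0 without VERCUR-WT 1 and 1 without VEH-WT 3 or VERCUR-WT 2. It was 2 without VEH-WT 1, 3 without VEH-WT 2 and 6 without VERCUR-WT 3.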
